A study of Rattus norvegicus with 34 samples.

Results

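The 5 testis arrays with the largest gap between the 3′ and the 5′ control probe set of beta-actin were set against the 26 other arrays with values. They were replicates 02 and 06 of Control, replicate 04 of M500, and replicate 05 each of M2000 and P2500. These arrays were chosen by this actin gap, taken as the 3′ score less the 5′ score, so the actin values are given as a description and were not tested. No other probe set entered the choice.

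Each array held testis RNA of 1 male Wistar Han IGS rat on an Affymetrix whole-genome rat array. The diet held a triazole fungicide, or none, between gestation day 6 and postnatal day 92, when the testis was taken. The exposed groups were M500 (myclobutanil, 500 ppm, 1 large-gap and 2 other arrays), M2000 (myclobutanil, 2000 ppm, 1 and 4), P500 (propiconazole, 500 ppm, 0 and 4) and P2500 (propiconazole, 2500 ppm, 1 and 4). They also included T500 (triadimefon, 500 ppm, 0 and 4) and T1800 (triadimefon, 1800 ppm, 0 and 4). The Control group (0 ppm) held 2 large-gap and 4 other arrays. Another 3 of the 34 labelled samples, 1 each of Control, M500 and T1800, had no part in the submitters' final analysis and were not analysed here. The labels give no litter, and littermates would not be independent animals. Since whole testis was measured, fewer cells of a type and less RNA per cell cannot be told apart in any result.

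Labelling of this kind starts at the poly(A) tail, where an oligo-dT primer begins the cDNA copy. Probe sets far from the tail therefore lose signal when an RNA is broken or when its copy stops early, and the 3′ minus 5′ gap of a housekeeping transcript is a usual readout of both. Adult testis is made up mainly of germ cells, and its spermatids store large amounts of short messages for sperm proteins until they are translated. Values are scores on a log-like scale whose base is not known, after quantile normalization, and differences are in score units.

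The actin gap was 1.67 in Control 02, 1.63 in Control 06, 1.60 in M500 04, 1.47 in M2000 05 and 1.47 in P2500 05. In the 26 other arrays it ran from 0.704 over a median of 0.851 to 1.33. Just outside the 5 stood P500 04 at 1.33, P500 03 at 1.27, P2500 02 at 1.15 and P500 02 at 1.10. The gap widened at the 5′ end. The 5′ actin probe set averaged 1.18 ± 0.15 in the large-gap arrays and 2.05 ± 0.17 in the others (SD, n = 5 and 26), whereas the 3′ probe set averaged 2.75 ± 0.17 and 2.94 ± 0.06. The middle probe set lay between these, at 2.07 ± 0.23 in the large-gap arrays and 2.80 ± 0.13 in the others.

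GAPDH, a glycolytic enzyme whose control probe sets the choice did not use, had a wider gap in the same arrays. Its 3′ minus 5′ gap was 0.719 in Control 02, 0.644 in Control 06, 0.986 in M500 04, 0.669 in M2000 05 and 0.732 in P2500 05, against a lowest, median and highest of 0.156, 0.240 and 0.549 in the other arrays. The groups did not overlap. The difference was 0.479 ± 0.065 (SE), with an adjusted p of 2.4e-05 by an exact two-sided permutation test over 169911 divisions of the arrays, adjusted over 4 gaps. GAPDH 3′ minus middle was 0.132 ± 0.085 in the large-gap arrays and -0.251 ± 0.057 in the others, again without overlap (exact permutation adjusted p = 2.4e-05).

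The gaps of hexokinase, the first enzyme of glycolysis, overlapped between the groups of arrays. Its 3′ minus 5′ gap was 0.994 ± 0.164 in the large-gap arrays and 0.921 ± 0.176 in the others (SD, n = 5 and 26), a difference of 0.0724 ± 0.081 (SE), with an exact permutation adjusted p of 0.40. The 3′ minus middle gap differed by 0.0803 ± 0.047 (SE, exact permutation adjusted p = 0.16), and this value passed the threshold when only the 4 diet groups that hold a large-gap array were compared (0.0994, exact permutation adjusted p = 0.032). All 3 hexokinase probe sets were low. The 3′ probe set averaged 1.40 ± 0.31 in the large-gap arrays and 2.11 ± 0.14 in the others, the middle one 0.711 ± 0.296 and 1.499 ± 0.194, and the 5′ one 0.406 ± 0.259 and 1.19 ± 0.27.

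**Figure D1:**
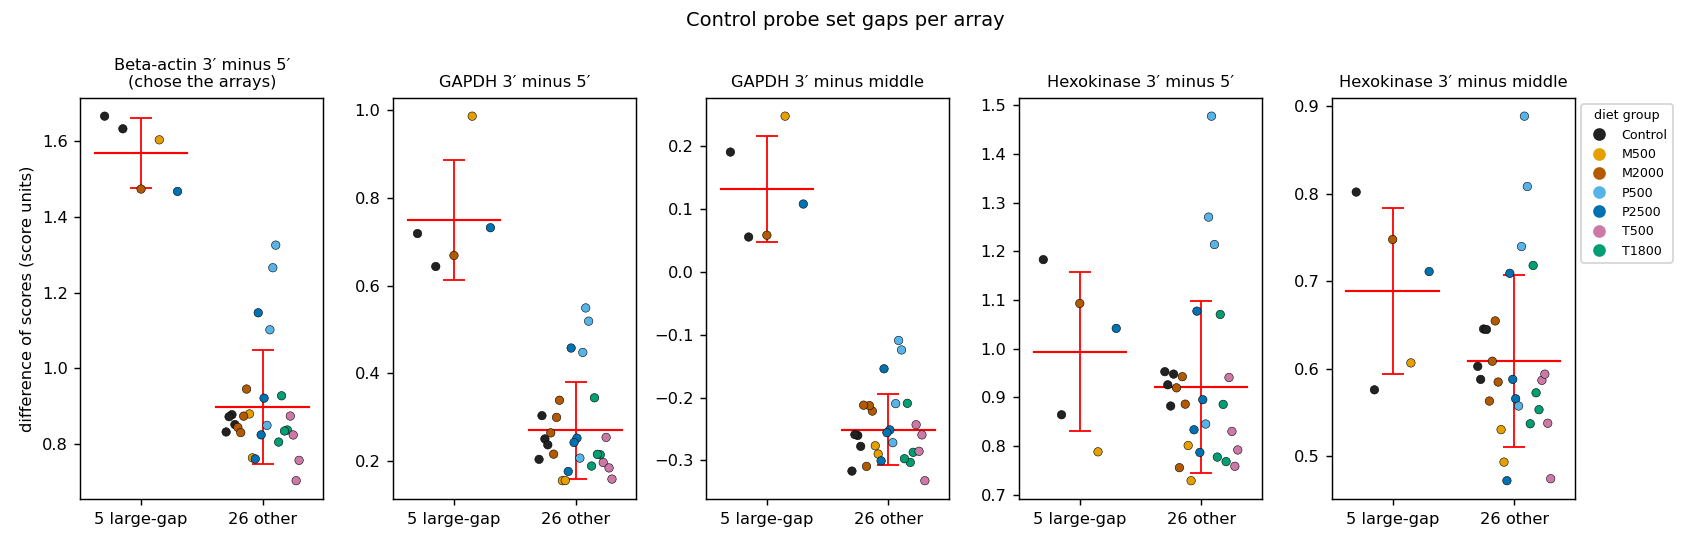
Gaps between control probe sets of 1 transcript in each array, in score units, with the 5 large-gap arrays on the left and the 26 others on the right of each panel. Points are arrays coloured by diet group, and red lines and bars are the mean and SD. The GAPDH gaps do not overlap between the groups of arrays, whereas the hexokinase gaps do.

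Most of the measured transcriptome differed in these arrays. With a mean per diet group in the model, 8693 of 31042 probe sets were lower (28.0%) and 8585 were higher (27.7%) in the large-gap arrays at an adjusted p under 0.05 in limma. Taking 1 probe set per gene, that of the highest mean, 4325 of 14217 genes were lower (30.4%) and 4232 higher (29.8%). On the scores as deposited the split was 4997 lower and 10722 higher, so that 68.2% of the calls were higher, against 49.7% after quantile normalization. Scores of all 5 arrays lay below those of all 26 others in 1299 probe sets (4.18%) and above them in 1466 (4.72%). The largest share of variance in the data, 49.9% on the first principal component, placed the 5 arrays between -25.0 and -20.6 and the 26 others between -13.8 and 9.64.

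The arrays that were not chosen carried a graded version of the same gap. Within the 26, the slope of a score on the actin gap was negative past the threshold for 2070 probe sets (6.67%) and positive for 2562 (8.25%). Per gene this came to 1001 lower (7.04%) and 1748 higher (12.3%) with a larger gap. The count rested on few arrays: 1093 lower and 1173 higher remained without P500 04, and 847 and 692 without P2500 02. Without P2500 02, 03 and 04, which hold liver transcripts, 606 were lower and 450 higher. Without the 4 arrays of largest gap among the 26 these were 342 and 269. On the scores as deposited the slope was negative past the threshold for 103 probe sets and positive for 7294.

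Several array properties moved with the choice or within it. The slope of the hybridisation controls on the log of their concentration was 0.926 per doubling in Control 02 and 0.945 in M500 04, against 0.450 to 0.491 in the other 3 large-gap arrays and 0.436 to 0.653 in the 26 others. Without those 2 arrays 7890 probe sets were lower and 7771 higher. By animal number, 4 large-gap and 21 other arrays belonged to an earlier series and 1 and 5 to a later one. The earlier series alone gave 7804 lower and 7861 higher. The later one has Control 06 as its single large-gap array, so that the other arrays alone give the spread, and its calls are not counted here. The part of the array scale in the results was not tested beyond these counts.

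The transcripts that fell furthest came mostly from genes shorter than the median. By the naming rule these were the 15 genes of the largest difference that lay on the same side in all 4 diet groups holding a large-gap array. Of them, 12 spanned less of the genome than the median gene (22338 bases), as did 7 of the 15 that rose furthest. Lower genes were more often short over all genes too, with 44.8% lower in the shortest of 5 bins by span and 21.0% in the longest. Whether the 15 went beyond this was not tested. Reep6, an endoplasmic reticulum shaping protein of photoreceptors and testis, scored 0.81 in Control 02, 1.79 in Control 06, 0.01 in M500 04, 1.27 in M2000 05 and 0.88 in P2500 05. In the 26 others it ran from 1.21 over 2.45 to 2.60. Control 06 and M2000 05 lay within the range of the others. The difference was -1.44 ± 0.17 (SE; limma's adjusted p = 5.3e-08), but the second Reep6 probe set, the brighter one, differed by -0.12 ± 0.06 (adjusted p = 0.11).

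Gstm2, a glutathione transferase that conjugates reactive compounds, separated the arrays completely. It scored 0.74, 0.70, 0.82, 1.003 and 0.74 in Control 02, Control 06, M500 04, M2000 05 and P2500 05, against 1.22, 1.85 and 2.20 as lowest, median and highest of the others. The difference was -1.06 ± 0.08 (SE; adjusted p = 2.3e-11). Lrrc51, a leucine-rich repeat protein, was likewise below every other array, at 1.47 to 1.96 in the large-gap arrays against 2.42 to 3.02 in the others (difference -0.96 ± 0.06). Selenow, a small selenoprotein of redox balance, did the same at 0.62 to 1.02 against 1.21 to 1.90 (difference -0.91 ± 0.07).

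Among the other large falls were H2al2l, an H2A-like histone variant gene, at -1.18 ± 0.13, and Mif, a cytokine with tautomerase activity, at -1.07 ± 0.09. Ubl5, a ubiquitin-like protein that works in splicing, differed by -1.05 ± 0.12, and Cfap144, named as a protein of cilia and flagella, by -1.01 ± 0.09. Resp18, an endocrine secretory granule protein, differed by -0.94 ± 0.08, and Serf2, a small protein that acts on amyloid folding, by -0.92 ± 0.09. In each of these 6 genes the lowest of the 26 others overlapped with the highest large-gap array. Slc2a3, a glucose transporter, fell by 0.99, Eif3l, a subunit of a translation initiation factor, fell by 0.98, and Ipo5, a nuclear import receptor, fell by 0.95. In M500 04 these last 3 genes had their lowest score of all 31 arrays, at -0.08, 0.43 and -0.17. After quantile normalization the slope within the 26 others was negative and past the threshold for all 15 genes. On the scores as deposited few probe sets had such a slope (103, against 7294 with a positive one).

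The opposite direction was led by Mt1, a metallothionein that binds zinc and copper. It scored 1.72 in Control 02, 0.69 in Control 06, 1.41 in M500 04, 0.66 in M2000 05 and 1.13 in P2500 05. The other arrays lay between 0.05 and 0.56 with a median of 0.18. All 5 were above all 26, the 2 arrays of wide hybridisation slope highest, and the difference was 0.92 ± 0.11 (SE; adjusted p = 4.7e-08). Within the 26 others Mt1 had a slope of 0.01 on the actin gap (adjusted p = 0.98).

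Id4, a transcriptional regulator of spermatogonial stem cells, scored 1.55, 1.13, 1.43, 1.06 and 1.39 in Control 02, Control 06, M500 04, M2000 05 and P2500 05, and 0.36, 0.43 and 0.88 as lowest, median and highest of the others. Its 2 probe sets rose by 0.85 ± 0.06 and 0.46 ± 0.03. Cox5a, a subunit of cytochrome c oxidase, rose by 0.87 ± 0.09, opposite to its partner Cox5b at -0.97 ± 0.12. Dync1li2, a dynein light intermediate chain, rose by 0.80 ± 0.05 and Kif5b, a kinesin heavy chain, by 0.78 ± 0.05. Both lay above every other array.

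Gas6, the ligand of the TAM receptors through which Sertoli cells clear dying germ cells, rose by 0.74 ± 0.05, with scores of 1.32 to 1.76 in the large-gap arrays against 0.74 to 1.13 in the others. Arid1b, a chromatin remodelling subunit, rose by 0.69 ± 0.05, Ubn1, a subunit of a histone H3.3 chaperone, by 0.69 ± 0.08, and Ccar1, a coactivator, by 0.71 ± 0.08. Others of the 15 were Pgpep1, a peptidase (0.82 ± 0.08), Sypl1, a vesicle membrane protein (0.75 ± 0.05), Zpr1, a zinc finger protein (0.74 ± 0.07), Pcbp3, an RNA-binding protein (0.71 ± 0.06), Nicn1, a tubulin-associated protein (0.67 ± 0.07), and Txnl1, a thioredoxin-like protein (0.67 ± 0.07). Of the 15 genes, 11 also passed with a positive slope within the 26. Mt1, Cox5a, Pgpep1 and Nicn1 did not.

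**Figure D2:**
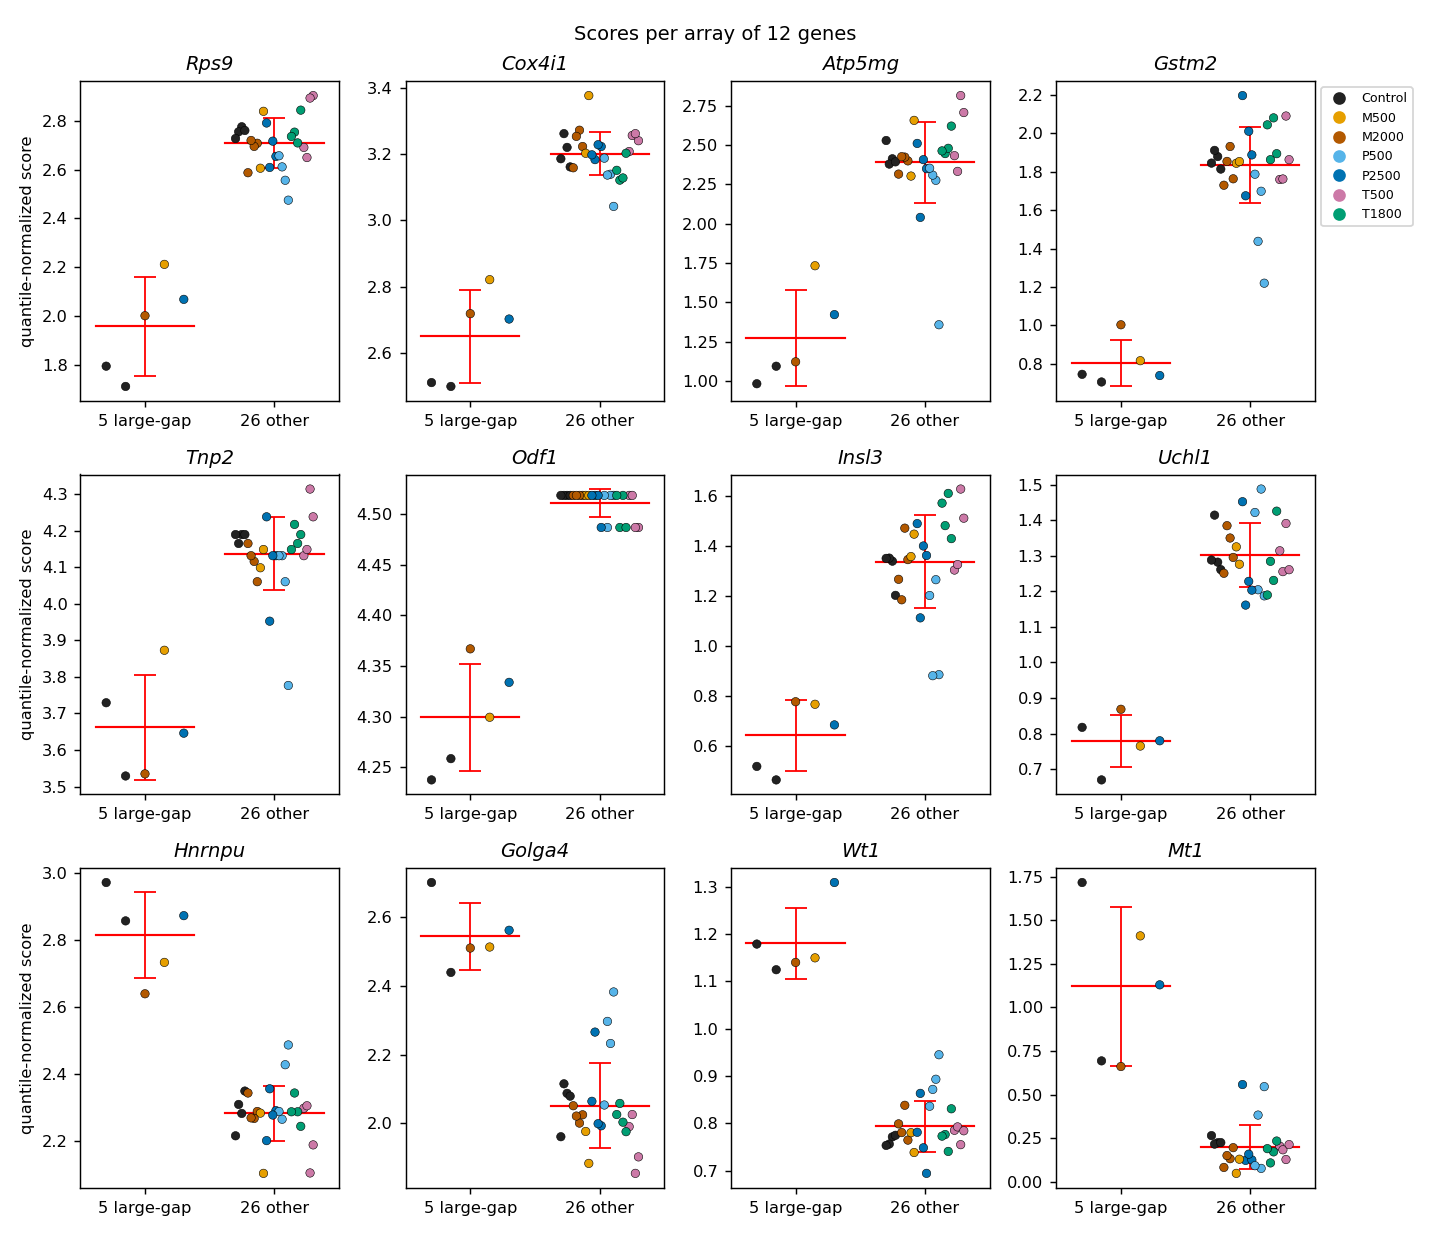
Quantile-normalized scores of 12 genes in each array, the 5 large-gap arrays on the left and the 26 others on the right, with points coloured by diet group and red lines and bars for the mean and SD. Of these genes, Atp5mg and Tnp2 have at least 1 other array within the range of the large-gap arrays, and the remaining 10 are separated.

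Genes of protein synthesis and of mitochondrial respiration were low as groups after quantile normalization, but on the scores as deposited the ribosomal list had 5 lower and 7 higher members. Of 42 measured cytosolic ribosomal protein genes, which build the translating ribosome, 33 were lower and 3 higher (78.6% and 7.1%). The median difference was -0.45, against a median of -0.005 over all genes, of which 30.4% were lower and 29.8% higher. With genes in 5 bins by genomic span, the bin of shortest genes had 44.8% lower and 15.2% higher. The median ribosomal gene, at 3398 bases, falls in that bin. Rps9, a protein of the small subunit, scored 1.79, 1.71, 2.21, 2.00 and 2.07 in Control 02, Control 06, M500 04, M2000 05 and P2500 05, against 2.47, 2.71 and 2.90 as lowest, median and highest of the others. It was below every other array (difference -0.75 ± 0.05; adjusted p = 2.6e-11). Rpsa, Rpl14 and Rpl12 were separated in the same way and fell by 0.60, 0.68 and 0.61. Rpl30, Rps13 and Rpl13a were the 3 higher members, at 0.23, 0.10 and 0.20, and were looked up after the counts were seen.

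The mean score over the 42 ribosomal genes was 2.08 in Control 02, 1.80 in Control 06, 2.28 in M500 04, 1.93 in M2000 05 and 2.07 in P2500 05. The others ran from 2.04 over 2.44 to 2.63. The list thus lay low in all 5 arrays, M500 04 least so, with some overlap. Within the 26, 26 members had a negative slope past the threshold and 1 a positive one, beside 7.04% and 12.3% of all genes. Without the 3 arrays with liver transcripts 7 had a negative one and none a positive one, although 36 of 42 slopes were below 0. On the scores as deposited none had a negative slope past the threshold and 8 had a positive one. The median difference there was -0.0011, and leaving out the 2 arrays of wide slope on those same scores gave 27 lower and 3 higher with a median of -0.60.

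The respiratory chain and ATP synthase list, which holds the complexes that turn oxygen into ATP, had 52 lower and 4 higher of 68 measured, with a median of -0.40. Shares lower and higher were 76.5% and 5.9%, beside 30.4% and 29.8% of all genes. The list's median span, 7128.5 bases, lies at the upper edge of the bin of shortest genes (44.8% lower and 15.2% higher). Cox4i1, a cytochrome c oxidase subunit, scored 2.51, 2.50, 2.82, 2.72 and 2.70 in Control 02, Control 06, M500 04, M2000 05 and P2500 05. The others ran from 3.04 over 3.20 to 3.38. The difference, -0.57 ± 0.03 (adjusted p = 5.0e-13), came without any overlap. Atp5mg, a small subunit of ATP synthase, averaged 1.27 ± 0.31 in the large-gap arrays and 2.39 ± 0.26 in the others (SD; difference -1.14 ± 0.12), with P500 04 at 1.36 inside the range of the large-gap arrays.

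Ndufb8 of complex I fell by 0.59, Uqcrfs1, the iron-sulphur protein of complex III, fell by 0.36 and Sdhb of complex II fell by 0.37. Each of them lay below all other arrays, but Uqcrfs1 stood at 0.13 on the scores as deposited. The 4 members that rose, Cox5a (0.87), Uqcrc2 (0.18), Sdha (0.15) and Ndufs1 (0.12), are a cytochrome c oxidase subunit, a complex III core protein and subunits of complexes II and I, the last 3 named after their values were seen. Within the 26, 45 members had a negative slope past the threshold and 4 a positive one, beside 7.04% and 12.3% of all genes. Without the arrays with liver transcripts these were 18 and 1. On the scores as deposited 19 were lower and 8 higher, and the slope was negative past the threshold for none and positive for 14.

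Genes of RNA splicing moved the other way. Of 42 measured members, 32 were higher and 2 lower (76.2% and 4.8%, beside 29.8% and 30.4% of all genes), with a median of 0.21. Hnrnpu, a nuclear RNA-binding scaffold protein, scored 2.97, 2.86, 2.73, 2.64 and 2.87 in Control 02, Control 06, M500 04, M2000 05 and P2500 05, and 2.10, 2.29 and 2.49 as lowest, median and highest of the others. No other array reached the range of the 5 (difference 0.54 ± 0.04; adjusted p = 5.9e-11). Srsf2, a serine- and arginine-rich splicing factor, rose by 0.43 ± 0.03. Luc7l and Luc7l2, proteins that act at the 5′ splice site, rose by 0.36 ± 0.02 and 0.39 ± 0.03. The 2 lower members were Srsf7 (-0.32) and Ddx17 (-0.26), a splicing factor and an RNA helicase, named after their values were seen. On the scores as deposited 35 were higher and 2 lower. Within the 26 others 14 had a positive and 2 a negative slope past the threshold, beside 12.3% and 7.04% of all genes. On the scores as deposited these were 30 and none. Without the 3 arrays with liver transcripts 3 were positive and 1 negative, and without the 4 of largest gap among the 26 these were 4 and none.

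Very long transcripts were higher more often than lower. Of 45 measured, 25 were higher and 5 lower (55.6% and 11.1%), with a median of 0.08. All genes had 29.8% higher and 30.4% lower. The bin of longest genes, in which the list's median span falls, had 40.8% higher and 21.0% lower. The mean over the list lay between 0.695 and 0.743 in the large-gap arrays, against 0.545 to 0.675 in the others. Syne2, a nesprin that ties the nucleus to the cytoskeleton, scored 1.76, 1.84, 1.78, 1.70 and 1.68 in Control 02, Control 06, M500 04, M2000 05 and P2500 05, against 1.09, 1.24 and 1.45 as lowest, median and highest of the others (difference 0.50 ± 0.04; adjusted p = 2.2e-11). Dst, a cytoskeletal linker, rose by 0.45 ± 0.03, Golga4, a golgin of vesicle tethering, by 0.51 ± 0.04 and Pcnt, a scaffold of the centrosome, by 0.24 ± 0.02. All 4 were above every other array. Within the 26 others 6 members had a positive slope past the threshold and 2 a negative one, beside 12.3% and 7.04% of all genes. Without the 3 arrays with liver transcripts these were 2 and 1, and without the 4 of largest gap among the 26 none passed. On the scores as deposited 19 slopes were positive and none negative past the threshold.

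**Figure D3:**
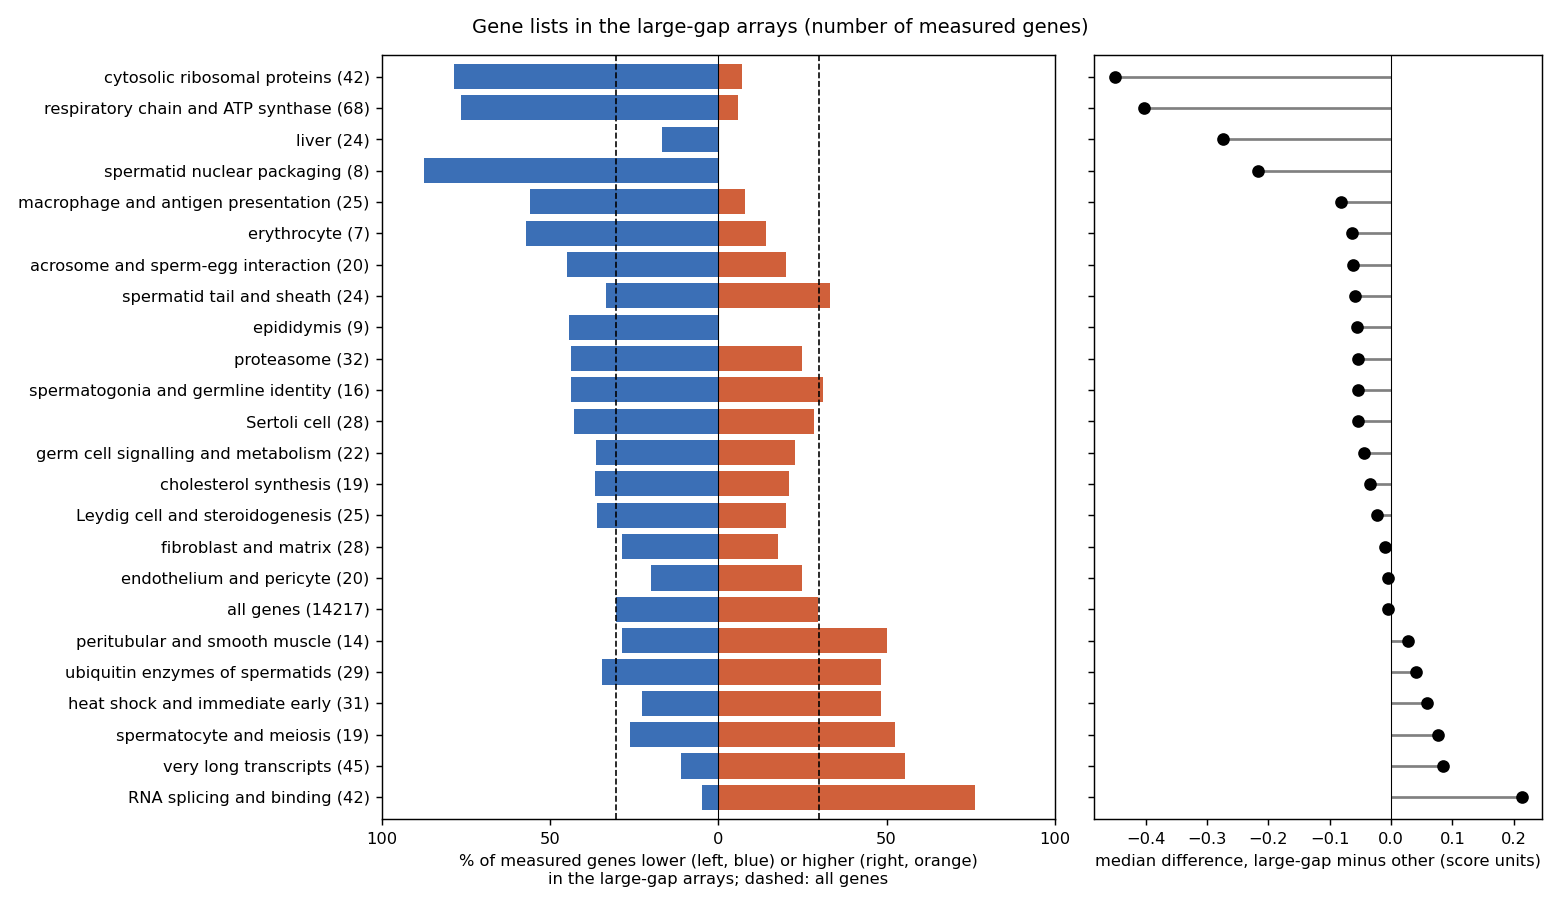
Left, share of the measured genes of each list that were lower (blue) or higher (orange) in the 5 large-gap arrays against the 26 others, in percent, with dashed lines at 30.4% lower and 29.8% higher for all genes; right, the median difference in score units. Values are quantile normalized. Ribosomal and respiratory genes lie far to the lower side, which for the ribosomal list does not hold on the scores as deposited (5 lower, 7 higher), and splicing genes to the higher side. The cell type lists vary, with 14 of 25 lower in the macrophage list and 7 of 14 higher in the peritubular list.

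The gradient followed the size of the gene. For 14167 genes with a span in the RefSeq annotation, introns included, divided into 5 bins of equal size, the bin of shortest genes (median 3887.5 bases) had 44.8% lower and 15.2% higher. In the bin of longest genes (median 126105 bases) 21.0% were lower and 40.8% higher. The 3 bins between them lay in order, with 36.1%, 27.2% and 22.8% lower and 22.3%, 31.7% and 38.9% higher. Within the 26 others the share with a negative slope was 14.8% in the bin of shortest genes and 3.35% in that of the longest, and the share with a positive slope was 4.09% and 15.5%. These shares are after quantile normalization. On the scores as deposited 103 probe sets had a negative slope past the threshold and 7294 a positive one. Genomic span is not transcript length, and transcript length was not used here. The median span was 3398 bases in the ribosomal list, 7128.5 in the respiratory list and 706 in the nuclear packaging list. It was 173511 among the very long transcripts and 22338 over all genes. All genes are thus no background of like size for these lists, and the part of gene size in them was not tested.

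**Figure D4:**
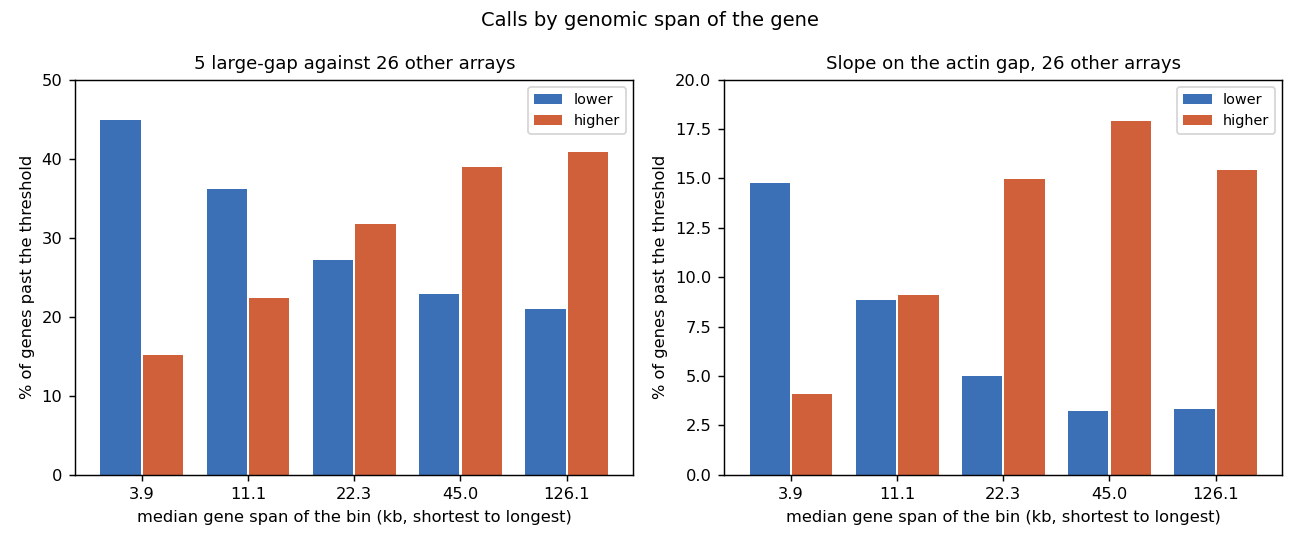
Percent of genes past the threshold in each of 5 bins of genes ordered by genomic span, with the median span of the bin in kb on the horizontal axis. Values are quantile normalized. In both panels the share of lower genes (blue) is highest for the shortest genes and the share of higher genes (orange) is lowest there; the left panel is the 5 large-gap arrays against the 26 others, the right one the slope within the 26.

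Messages for sperm nuclear packaging were lower after quantile normalization. Spermatids replace their histones first by transition proteins and then by protamines, and 7 of the 8 measured genes were lower. That is 87.5%, beside 30.4% of all genes. The list's median span, 706 bases, falls in the bin of shortest genes, of which 44.8% were lower. Tnp2, a transition protein, scored 3.73, 3.53, 3.87, 3.54 and 3.65 in Control 02, Control 06, M500 04, M2000 05 and P2500 05, against 3.78, 4.15 and 4.31 as lowest, median and highest of the others. M500 04 overlapped with the lowest other array. The difference was -0.49 ± 0.05 (adjusted p = 6.2e-09), but 0.25 ± 0.35 on the scores as deposited (adjusted p = 0.57).

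Prm3, a protamine-like gene, fell by 0.57, Tnp1 by 0.35, Hils1, a linker histone of spermatids, by 0.23, Prm2 by 0.13 and H1f6, the testis linker histone, by 0.13. H1f6 scored near 0, with a mean of -0.16 in the large-gap arrays and -0.03 in the others, so its call rests on little signal. Between M500 04 and the other M500 arrays the differences of Prm3, Tnp1 and Prm2 were -0.004, 0.03 and 0.01, and the median of the list was -0.0019. On the scores as deposited Hils1, Prm2 and Tnp1 stood at 0.39, 0.57 and 0.49, none past the threshold. There the list had 1 lower and 1 higher member and a median of 0.36, and without the 2 arrays of wide slope 3 lower, none higher and a median of -0.37. Prm1, the first protamine, had the highest score in every array, so that quantile normalization gave it 1 value, 4.66, and nothing can be read from it. Odf1 and other genes near the top ranks are held in steps for the same reason.

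Genes of the sperm tail were lower in 8 and higher in 8 of 24 measured, with a median of -0.06. These shares, 33.3% each, were near those of all genes (30.4% lower and 29.8% higher). On the scores as deposited none was lower and 10 were higher, with a median of 0.47. Odf1, the main protein of the outer dense fibres, scored 4.24 to 4.37 in the large-gap arrays against 4.49 to 4.52 in the others (difference -0.21 ± 0.01, and 0.67 ± 0.39 on the scores as deposited). Odf4, of the same fibres, fell by 0.29, Tekt5, a tektin of the flagellum, by 0.31 and Oaz3, the antizyme of spermatids, by 0.19, all below every other array. With Odf1 these are the 4 members of smallest p, and they do not stand for the list. As many members rose as fell, and differences in the list ran from -0.66 to 0.38. The Oaz3 difference was 0.64 on the scores as deposited. Akap4, the scaffold of the fibrous sheath, differed by 0.04 ± 0.04 (adjusted p = 0.41).

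Acrosomal genes, which serve the vesicle that opens at fertilisation, were lower in 9 and higher in 4 of 20. That is 45% and 20%, beside 30.4% and 29.8% of all genes. The split turned to 4 lower and 8 higher on the scores as deposited. Tex101, a surface protein of germ cells, scored 1.56, 1.53, 1.55, 1.59 and 1.54 in Control 02, Control 06, M500 04, M2000 05 and P2500 05, against 1.87, 2.06 and 2.19 as lowest, median and highest of the others (difference -0.50 ± 0.03; adjusted p = 6.0e-12). The 5 arrays thus lay close together and below the rest. Acr, the protease acrosin, fell by 0.49, Spaca3, a lysozyme-like acrosomal protein, by 0.52 and Lyzl6, of the same family, by 0.49. The mean over the 20 genes ran from 1.75 to 1.96 in the large-gap arrays and from 1.97 to 2.04 in the others.

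Of the germ cell signalling and metabolism list, 8 were lower and 5 higher of 22, against 2 lower and 6 higher on the scores as deposited. The first 2 counts make 36.4% and 22.7%, beside 30.4% and 29.8% of all genes. Crem, the transcription factor that switches on spermatid genes, scored 1.49, 1.63, 1.79, 1.90 and 1.75 in Control 02, Control 06, M500 04, M2000 05 and P2500 05, against 2.24, 2.35 and 2.44 as lowest, median and highest of the others. It lay below every other array, at a difference of -0.62 ± 0.04 (adjusted p = 5.7e-12). Pgam2, a phosphoglycerate mutase, fell by 0.41 and Ppp3r2, the testis calcineurin subunit, by 0.38. Rfx4, a transcription factor of the RFX family, rose by 0.53 ± 0.05. Hk1, hexokinase 1, differed by -0.08 ± 0.04 (adjusted p = 0.13) in its gene probe set, although the 3 hexokinase control probe sets were low by 0.71 to 0.79.

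Spermatocyte and meiosis genes were higher in 10 and lower in 5 of 19, with a median of 0.08. Shares higher and lower were 52.6% and 26.3%, beside 29.8% and 30.4% of all genes. Cldn11, a tight junction protein listed also for Sertoli cells, scored 2.86, 2.63, 2.50, 2.65 and 2.77 in Control 02, Control 06, M500 04, M2000 05 and P2500 05, against 2.01, 2.13 and 2.33 as lowest, median and highest of the others (difference 0.56 ± 0.04; adjusted p = 4.2e-11). Its slope within the 26 was 0.59 (adjusted p = 1.7e-05). Cldn11 is counted as higher in both lists, so its rise cannot be credited to spermatocytes. Mybl1, the master regulator of meiotic prophase, rose by 0.36 ± 0.05 and Mns1, a meiotic and axonemal protein, by 0.28 ± 0.05. Syce3, of the synaptonemal complex, fell by 0.37.

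Of 16 genes of spermatogonia and germline identity, 7 were lower and 5 higher (43.75% and 31.25%, beside 30.4% and 29.8% of all genes). Uchl1, a ubiquitin hydrolase of spermatogonia, scored 0.82, 0.67, 0.76, 0.87 and 0.78 in Control 02, Control 06, M500 04, M2000 05 and P2500 05, against 1.16, 1.28 and 1.49 as lowest, median and highest of the others (difference -0.52 ± 0.05; adjusted p = 1.0e-09). This is opposite to Id4 of the same list. Kit, the receptor of differentiating spermatogonia, fell by 0.18 and Dmrt1, a regulator of the switch to meiosis, by 0.15, both at scores near 0.

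Of 25 measured Leydig cell genes, 9 were lower and 5 higher (36% and 20%, beside 30.4% and 29.8% of all genes). On the scores as deposited 7 were lower and 7 higher. Insl3, the peptide hormone of Leydig cells, scored 0.52, 0.46, 0.77, 0.78 and 0.68 in Control 02, Control 06, M500 04, M2000 05 and P2500 05, against 0.88, 1.35 and 1.63 as lowest, median and highest of the others. All 5 were below all 26 (difference -0.69 ± 0.07; adjusted p = 1.9e-09). Ptgds, prostaglandin D synthase, fell by 0.57, Ephx1, an epoxide hydrolase, by 0.40, and Star, which brings cholesterol into mitochondria, by 0.34 ± 0.08 (adjusted p = 0.00076). In the later animal series alone, with Control 06 as its single large-gap array, Star stood at 0.05. Idh1, an isocitrate dehydrogenase, rose by 0.26 ± 0.03.

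Of the enzymes of androgen synthesis, 3 that were always to be reported did not pass the threshold. Cyp11a1, the side chain cleavage enzyme, differed by -0.04 ± 0.09, Cyp17a1, which makes androgen precursors, by 0.01 ± 0.12 and Hsd17b3, which makes testosterone, by 0.01 ± 0.02 (adjusted p = 0.70, 0.95 and 0.56). Their slopes within the 26 did not pass either. The sign of the first 2 changed with several alternatives, and these p-values do not show that the levels were equal. Hsd3b1, a steroid dehydrogenase of the same list, rose by 0.27 and was looked up after its value was seen.

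Sertoli cell genes were lower in 12 and higher in 8 of 28 (42.9% and 28.6%, beside 30.4% and 29.8% of all genes). They were lower in 4 and higher in 10 on the scores as deposited. Wt1, the transcription factor that keeps Sertoli cell identity, scored 1.18, 1.12, 1.15, 1.14 and 1.31 in Control 02, Control 06, M500 04, M2000 05 and P2500 05, against 0.69, 0.78 and 0.94 as lowest, median and highest of the others (difference 0.41 ± 0.02; adjusted p = 2.5e-12). Inhbb, the beta B subunit of inhibin, rose by 0.33 ± 0.02 and Tjp1, a tight junction scaffold, by 0.33 ± 0.03, also without overlap. With Cldn11 these are the 4 members of smallest p. All 4 rose, although more of the list was lower than higher. Differences in the list ran from -0.43 to 0.56, with a median of -0.05. Clu, a chaperone secreted by Sertoli cells, fell by 0.22 ± 0.04 but stood at 0.20 ± 0.22 on the scores as deposited.

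Peritubular and smooth muscle genes were higher in 7 and lower in 4 of 14 (50% and 28.6%, beside 29.8% and 30.4% of all genes). Mylk, a myosin kinase, stood at 0.24 ± 0.03 and Acta2, smooth muscle actin, at -0.35 ± 0.06. Fibroblast and matrix genes were lower in 8 and higher in 5 of 28 (28.6% and 17.9%). Both shares were under those of all genes (30.4% and 29.8%). The split turned on the scores as deposited (2 lower, 9 higher) and without the 3 arrays with liver transcripts (5 and 8). Of this list Pdgfra, a growth factor receptor, stood at 0.53 ± 0.04 and Mgp, a small matrix protein, at -0.48 ± 0.07. Endothelial genes were higher in 5 and lower in 4 of 20 (25% and 20%), again under the shares of all genes. Without the 3 arrays with liver transcripts 5 were higher and 6 lower. Kdr, a receptor of VEGF, stood at 0.24 ± 0.02 and Vwf, a clotting glycoprotein, at 0.20 ± 0.02.

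Macrophage and antigen presentation genes were lower in 14 and higher in 2 of 25 (9 and 4 on the scores as deposited), with a median of -0.08. The first 2 counts make 56% and 8%, beside 30.4% and 29.8% of all genes. Aif1, a calcium-binding protein of macrophages, scored 1.68, 1.82, 2.40, 2.07 and 2.18 in Control 02, Control 06, M500 04, M2000 05 and P2500 05, against 2.35, 2.63 and 2.78 as lowest, median and highest of the others (difference -0.59 ± 0.07; adjusted p = 2.3e-08). C1qb, of complement, fell by 0.19 and Fcer1g, an Fc receptor chain, by 0.17, the latter at scores near 0. Mrc1, the mannose receptor, was opposite at 0.40 ± 0.04. Csf1r and Cd163, which mark testis macrophages, were not past the threshold at 0.04 and 0.07, and were looked up after the counts were seen.

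Blood, liver and epididymis markers were measured because a dissected testis can carry them. Of 7 erythrocyte genes 4 were lower and 1 higher (57.1% and 14.3%, beside 30.4% and 29.8% of all genes). Hbb, a beta globin, scored 0.93, 0.46, 0.62, 0.77 and 0.77 in Control 02, Control 06, M500 04, M2000 05 and P2500 05, against 0.93, 1.39 and 2.17 as lowest, median and highest of the others (difference -0.67 ± 0.08; adjusted p = 4.5e-08). The mean over the 7 genes was 0.091 to 0.140 in the large-gap arrays and 0.177 to 0.361 in the others. Of 9 epididymis genes 4 were lower and none higher (44.4% lower, beside 30.4% of all genes), with Wfdc10a, a protease inhibitor-like gene, at -0.72 ± 0.11.

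Of 24 liver genes 4 were lower and none higher, with a median of -0.27. The share lower, 16.7%, was under the 30.4% of all genes. Alb, albumin, scored 0.13, 1.32, 0.05, 2.29 and -0.12 in Control 02, Control 06, M500 04, M2000 05 and P2500 05, against 0.00, 0.66 and 4.15 as lowest, median and highest of the others (difference -0.86 ± 0.49; adjusted p = 0.13). M2000 05 and Control 06 thus held more albumin signal than the median of the others. The median difference of the list was -1.05 within P2500, where the other arrays include the 3 with liver transcripts, and between -0.14 and 0.06 in the other 3 groups. Without those 3 arrays the list's median was -0.05. Apoc3, Fgb, Hpx and Apoa1, blood proteins made in liver, were the 4 that fell, by 0.51, 0.37, 0.38 and 0.27.

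Of the remaining lists, the proteasome had 14 lower and 8 higher of 32 (4 and 11 on the scores as deposited), with Psmb1 and Psma2, subunits of its core, at -0.49 ± 0.04 and -0.57 ± 0.05. Shares lower and higher were 43.75% and 25% here and 36.8% and 21.1% for cholesterol synthesis. For heat shock they were 22.6% and 48.4%, and for ubiquitin enzymes 34.5% and 48.3%. All genes had 30.4% lower and 29.8% higher. Heat shock and immediate early genes were higher in 15 and lower in 7 of 31. Hspa5, the chaperone of the endoplasmic reticulum, rose by 0.45 ± 0.05 and Egr1, an early response factor, by 0.28 ± 0.03. Ubiquitin enzymes of spermatids were higher in 14 and lower in 10 of 29 (15 and 1 on the scores as deposited), with Usp25, a deubiquitinase, at 0.43 ± 0.03 and Ube2n, a conjugating enzyme, at -0.42 ± 0.04. Cholesterol synthesis genes, the target pathway of azole fungicides, were lower in 7 and higher in 4 of 19 (3 and 5 on the scores as deposited). Cyp51, the sterol demethylase that azoles inhibit, rose by 0.45 ± 0.05 and had a slope of 0.80 within the 26 (adjusted p = 4.0e-04). It had the largest rise of its list, whose median difference was -0.03 and lowest -0.27. Within the 26, 3 members of the list had a positive slope past the threshold. Without the 3 arrays with liver transcripts 2 did, and without the 4 of largest gap among the 26 none.

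Probe sets of 1 gene often disagreed. Of 4525 genes with 2 or more probe sets, 1252 (27.7%) had at least 1 lower and 1 higher probe set, 1430 had lower ones and none higher, 1224 higher ones and none lower, and 619 had none past the threshold. With 28.0% of all probe sets lower and 27.7% higher, probe sets of unlike genes would disagree too. How often they would was not worked out. Within the 26 others 171 of these genes (3.78%) had both a negative and a positive slope past the threshold. Glul, glutamine synthetase, gave 2.37, 2.69, 1.95, 2.60 and 2.39 in Control 02, Control 06, M500 04, M2000 05 and P2500 05 with 1 probe set, against 2.84, 3.13 and 3.20 as lowest, median and highest of the others. With another it gave 2.26, 1.95, 2.07, 2.07 and 2.31, against 1.49, 1.60 and 1.82. Both separated the arrays completely, in opposite directions (-0.72 ± 0.06 and 0.53 ± 0.05).

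Both probe sets of Pcbp3 also separated the arrays, at -0.62 ± 0.06 and 0.71 ± 0.06. Gtf2f1, a subunit of a general transcription factor, gave -0.60 ± 0.06, with Control 06 inside the range of the others, and 0.69 ± 0.07 without overlap. Slc2a3 gave -0.99 ± 0.11 and 0.21 ± 0.04. For these 4 genes, picked by the width of the spread, the slopes within the 26 had the signs of the differences. Reep6, picked by the same rule, had a slope of 0.27 in its brighter probe set, against a difference of -0.12. The position of each probe set along its transcript was not used here. A gene's direction in these arrays is therefore that of the probe set named, and for list members that of the probe set of highest mean.

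**Figure D5:**
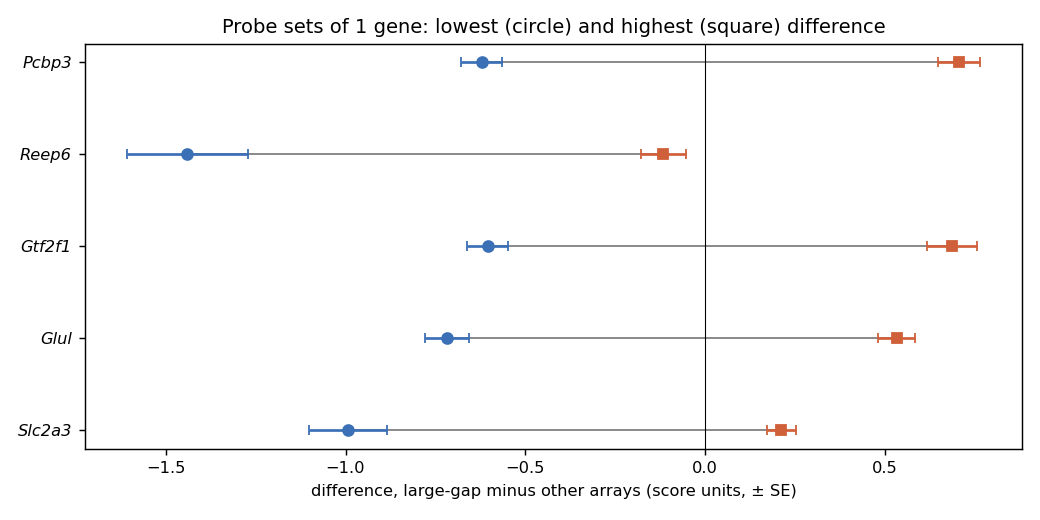
Difference between the 5 large-gap arrays and the 26 others, in score units with standard errors, for the lowest (circle) and highest (square) probe set of the 5 genes whose probe sets lay furthest apart. For Pcbp3, Gtf2f1, Glul and Slc2a3 the 2 probe sets lie on opposite sides of 0.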

How the data were processed

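The values deposited by the authors are scores that behave like logarithms. Their base, the summarisation of probes and the normalization are not given in the sources used here. Per the labels' protocols, RNA was primed with oligo-dT and labelled as biotin cRNA, for liver as well as testis of the study. The 31 arrays were quantile normalized over 31099 probe sets with limma 3.58.1 in R 4.3.3, and 31042 that are not controls were tested (lmFit, eBayes, a mean per diet group plus the large-gap term; Benjamini-Hochberg, 0.05). All adjusted p-values for genes are limma's. The number of arrays limits how precise a difference is (median standard error 0.024). A second fit took the slope on the actin gap within the 26 other arrays. Control gaps were tested by exact permutation (SciPy 1.17.1). Simulated scores with known differences were used to test both fits.

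GEO's platform annotation, which may be out of date, gave 1 symbol to 20826 probe sets. Those with several symbols name no gene here, so Actb and Gapdh are not reported as genes. Probe sets of gene families, such as ribosomal, globin and metallothionein genes, may bind related transcripts. The arrays, the 23 gene lists and the naming rule (15 genes of largest difference each way on the same side in 4 groups, 4 members per list, 16 genes always taken and the 5 genes with the widest probe set spread) were chosen with earlier results of these data known. Genes named outside the rule are marked as such. Protein length, planned as a description, was replaced by genomic span. Alternatives were other scaling, covariates, filters, blocks and left-out arrays.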

Additional observations from a re-analysis of the deposited data

Results flagged for a closer look

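Single arrays stood apart from the others of their group by Dixon's ratio at its 95% critical value. This was so in 16 of 166 sets of values examined, where chance flags about 1 in 20. The sets pool 136 named probe sets, over the 5 large-gap arrays, with control gaps and hybridisation slopes within diet groups. Most flags lie in these gaps and slopes, although fewer sets of them were examined. The pooled rate is thus no excess for the genes. Among the 5 large-gap arrays, Control 02 scored 3.90 for Pcbp3, against 3.48 to 3.56 in the other 4, and 2.41 for Ube2n, against 2.70 to 2.76. M500 04 scored 2.38 for Pgam2, against 2.01 to 2.08, and 0.094 for Des, an intermediate filament gene of muscle, against 0.032 to 0.049. P2500 05 scored 1.58 for Luc7l2, against 1.37 to 1.39. M2000 05 scored -0.159 for Spag11a, an epididymal defensin-like gene, against -0.188 to -0.184.

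Within their diet groups, M2000 05 stood apart in GAPDH 3′ minus 5′ (0.669, against 0.216 to 0.339) and in GAPDH 3′ minus middle (0.0586, against -0.310 to -0.212). Control 02 stood apart in the hexokinase gaps, at 1.18 for 3′ minus 5′ (others 0.864 to 0.953) and 0.802 for 3′ minus middle (others 0.576 to 0.645). T1800 03, which is not a large-gap array, stood apart in GAPDH 3′ minus 5′ at 0.344 (others 0.189 to 0.216) and in GAPDH 3′ minus middle at -0.209 (others -0.303 to -0.287). In the slope of the hybridisation controls, Control 02 stood at 0.926 per doubling (others 0.451 to 0.513), M2000 01 at 0.582 (others 0.436 to 0.454), P2500 01 at 0.653 (others 0.439 to 0.482) and T500 01 at 0.592 (others 0.477 to 0.490).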

How the results depend on the processing

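The counts of lower and higher probe sets in the large-gap arrays stayed within 1.5 times of 8693 and 8585 under the alternatives run, except on the scores as deposited (4997 lower), among probe sets above the median mean score, where fewer are tested (5493 and 5141), and in the later animal numbers alone (5504 lower). Leaving out each array in turn gave 8048 to 8883 lower and 8138 to 8683 higher. The slope counts within the 26, 2070 and 2562, were 103 and 7294 on the scores as deposited, 606 and 450 without the 3 arrays with liver transcripts, and 342 and 269 without the 4 arrays of largest gap among them. Leaving out 1 array gave 847 (P2500 02) to 2860 (P500 03) lower and 692 to 3751 higher. The cause of these changes was not tested.

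Hexokinase 3′ minus middle passed on the scores as deposited (0.161) and in the 4 groups that hold a large-gap array (0.0994). Of 2708 values of 136 named probe sets under alternatives, 2590 kept direction and side of the threshold, 83 lost and 10 gained the call and 25 changed sign. On the scores as deposited the sign changed for Tnp2 (0.25), Hils1 (0.39), Odf1 (0.67), Oaz3 (0.64), Clu (0.20), Uqcrfs1 (0.13), Fdps (0.12), Prm2 (0.57), Tnp1 (0.49), Cyp11a1 (0.18), Hk1 (0.47) and the brighter Reep6 probe set (0.46). Without the 2 arrays of wide slope as well it changed for Akap4 (-0.021). In the later animal numbers it changed for Star (0.046), Cyp11a1 (0.020), Alb (0.53) and that Reep6 probe set (0.073), and in the earlier ones for Akap4 (-0.000468) and Cyp17a1 (-0.019). The later animal numbers, with 1 large-gap array, are among the alternatives in the counts of kept, lost and gained calls. Cyp17a1 was -0.092 without group terms, and Hsd17b3 -0.0083 on the continuous gap. Leaving out 1 large-gap array moved Cyp11a1 between -0.12 and 0.033 and Cyp17a1 between -0.095 and 0.052.

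With the replicate number as a block, 7812 probe sets were lower and 8224 higher (slope within the 26: 1830 and 2406), Cyp11a1 was 0.071 and Cyp17a1 -0.028. A pairing by number was not seen: of 73 same-numbered pairs, 30 had correlated deviations above 0.1 (range -0.77 to 0.77), and 7 of 31 arrays were closest to 1 of their own number. These deviations still held the differences that go with the actin gap, so they cannot exclude a pairing. Signal limits what can be seen: in 5 bins of genes by mean score, the median absolute difference was 0.0366 in the dimmest and 0.183 in the brightest.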
